A study of Triticum aestivum with 12 samples.

Results

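The genes described here are 62 high-confidence gene models of bread wheat, Triticum aestivum, that lie in 3 runs of neighbouring identifiers. The deposited table holds 128497 gene models, of which 82323 are high-confidence models. The identifiers give the chromosome and a number that follows the order along it. On chromosome 2B, 15 models run from TraesCS2B01G475100 to TraesCS2B01G476700 and 29 from TraesCS2B01G481000 to TraesCS2B01G483900, and on chromosome 2D, 18 models run from TraesCS2D01G453900 to TraesCS2D01G455600. They are called here the lower 2B interval, the higher 2B interval and the 2D interval. The intervals were chosen from these same libraries, since neighbouring genes there had higher counts in cold-acclimated than in unacclimated crowns. Values of LTA against NTG are therefore given as a description, without a test. The higher 2B interval was also known to be high in LTAF against NTGF, and which comparison set the lower 2B interval is not recorded. Values of LTAF against NTGF on 2B are therefore descriptive too. On 2D adjusted p-values of that comparison are given for single models, from other libraries than LTA against NTG. Its results were known when the interval was chosen, so these p-values are a description and do not support the interval.

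The data are read counts from RNA sequencing of crowns, the short stem base from which leaves and roots grow, in the cultivar Jing411. The tissue field of the labels names seedlings, and the crown comes from the extraction protocol. There are 4 groups of 3 biological replicates. LTAF plants spent 28 days at 4 °C, followed by 24 hours of freezing at -5 °C. LTA plants spent 28 days at 4 °C without freezing. NTGF plants spent 28 days at 20 °C, followed by 24 hours of freezing at -5 °C. NTG plants spent 28 days at 20 °C without freezing. Acclimated and unacclimated plants of the same age can differ in growth and stage as well as in temperature, and these cannot be told apart here. In whole crowns, fewer cells of a type and less RNA per cell cannot be told apart either. The deposited table consists of an identifier and 12 count columns, without gene names or descriptions, so no marker of the crown could be checked.

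Cold acclimation is the process by which winter cereals become more tolerant of freezing during weeks of low, non-freezing temperature. It is accompanied by wide changes in transcript levels, among them those of genes for protective proteins, for sugar and fructan metabolism and for lipids. Wheat is hexaploid, with the subgenomes A, B and D, so that most genes have related copies on the corresponding chromosomes, such as 2B and 2D. In plant genomes, neighbouring genes with a shared expression pattern are known from tandem duplicates, which arise by local copying, and from clusters of genes of 1 metabolic pathway. Which of these, if any, applies to the present intervals is not annotated: the reference table of wheat genes matched 0 of the identifiers, so no name, function, length or sequence is given for any of them. Levels are given in CPM, counts scaled to a common library size and not to gene length. They are therefore compared between libraries for 1 gene, and not between genes.

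Libraries held 17871036 to 21491305 counts. Within groups, the rank correlation of libraries over the tested models was lowest in LTAF (0.917 to 0.978, the lowest values involving replicate 2) and in NTGF (0.932 to 0.947). It was 0.970 to 0.979 in LTA and 0.964 to 0.978 in NTG. No pair of libraries held identical counts. A model was tested if it passed a filter on low counts, which 69693 models did. Of the 62 members, 50 passed: all 15 of the lower 2B interval, 20 of 29 in the higher 2B interval and 15 of 18 on 2D. The passing members include those that passed through the groups where they are high, so counts over them describe the intervals and are no evidence for them. For such members the p-values are a description too. All p-values are edgeR quasi-likelihood values adjusted over all 69693 tested models, and a model was called at an adjusted p under 0.05. Log2 fold changes are the fitted values of that model, with the standard error (SE) where no group is without a count. NTGF against NTG and LTAF against LTA contain libraries of comparisons that chose or may have chosen the intervals. Their p-values for single members, and calls that held with libraries left out, are therefore a description and no independent test.

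As groups of neighbours, all 3 intervals lay higher in both acclimated groups than in NTG, and higher in LTAF than in NTGF. The mean log2 CPM over the 20 tested members of the higher 2B interval was 2.99 ± 0.42 in LTAF, 2.25 ± 0.38 in LTA, 0.34 ± 0.37 in NTGF and -0.00 ± 0.03 in NTG (SD, n = 3 each). Over the 15 members of the lower 2B interval it was 2.81 ± 0.15 in LTAF, 1.52 ± 0.26 in LTA, 1.16 ± 0.73 in NTGF and 0.29 ± 0.21 in NTG. Over the 15 tested members on 2D it was 3.10 ± 0.19 in LTAF, 2.61 ± 0.03 in LTA, 1.15 ± 0.67 in NTGF and 0.85 ± 0.16 in NTG. In none of the 3 intervals did a library of LTAF overlap a library of NTGF or NTG, nor a library of LTA one of NTG. In the lower 2B and 2D intervals the NTGF libraries spread most. In the lower 2B interval they lay at 0.53, 0.98 and 1.96 log2 CPM in replicates 1, 2 and 3, so that replicate 3 lay above the 3 LTA libraries, which reached 1.69. On 2D the NTGF libraries lay at 0.53, 1.06 and 1.87, and replicate 1 lay below the 3 NTG libraries.

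**Figure D1:**
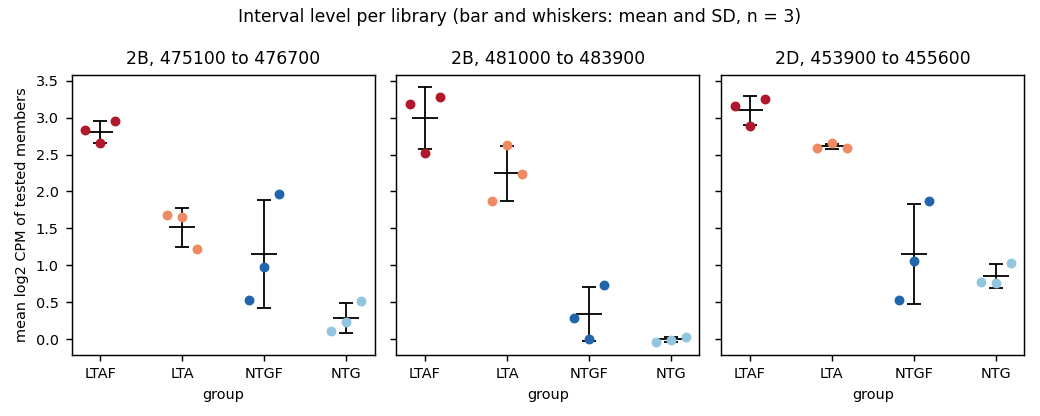
Mean log2 CPM of the tested members (vertical axis) in each library, by group (horizontal axis), for the 3 intervals. Points are libraries, and bars with whiskers are the mean and SD of 3 libraries: LTAF is highest in each interval, at 2.99 in the higher 2B interval, 2.81 in the lower 2B interval and 3.10 on 2D.

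**Figure D2:**
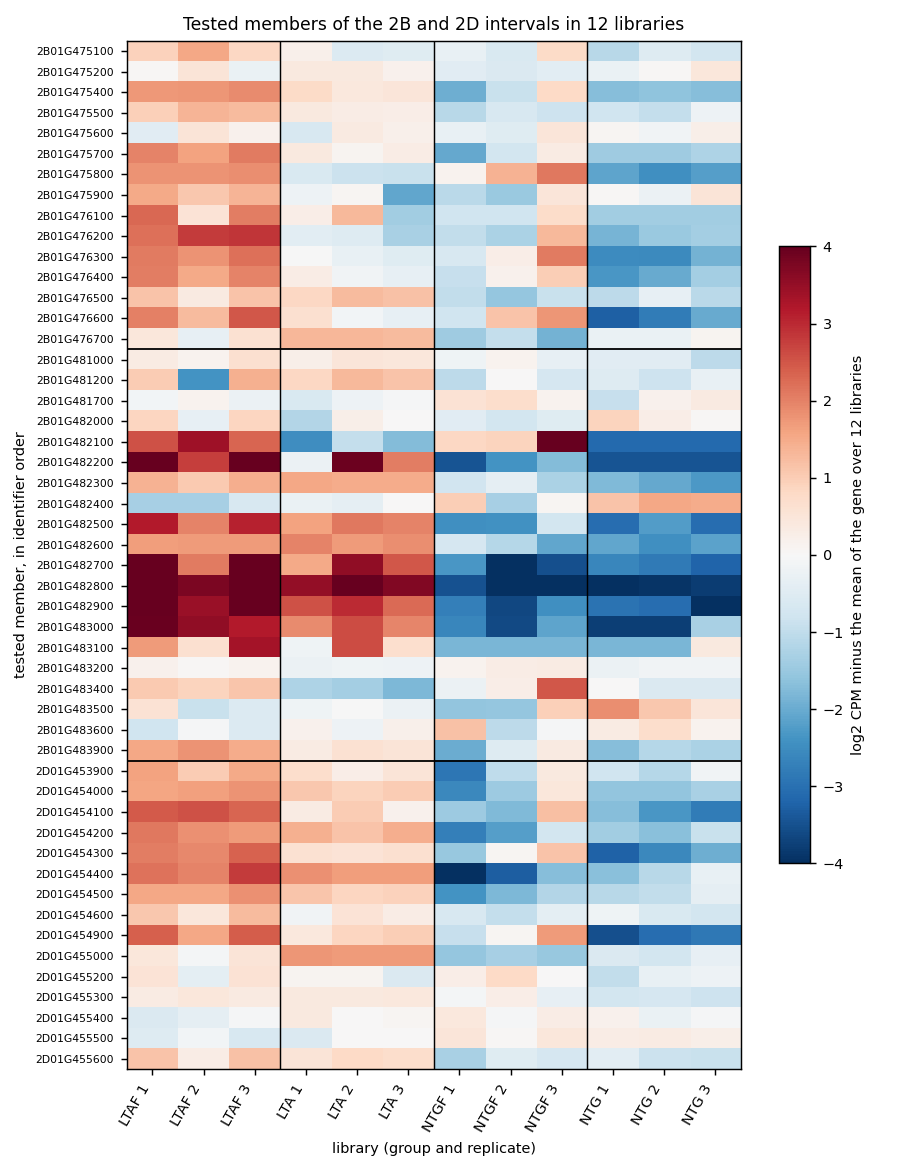
The 50 tested members (rows, in identifier order, with black lines between the lower 2B, higher 2B and 2D intervals) in the 12 libraries (columns). Colour is log2 CPM minus the mean of the gene over the 12 libraries, cut at -4 and 4: the deepest contrast between acclimated and unacclimated libraries lies in the higher 2B interval, between TraesCS2B01G482200 and TraesCS2B01G483100.

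In the higher 2B interval the reads came mainly from a few models. All 29 members together held 0.078% ± 0.012 of the library in LTAF, 0.0622% ± 0.0040 in LTA, 0.0114% ± 0.0011 in NTGF and 0.0080% ± 0.00089 in NTG. TraesCS2B01G482300, TraesCS2B01G482600, TraesCS2B01G482800 and TraesCS2B01G482900, chosen after their values were seen, carried 82.5% of the interval's CPM in LTAF, 88.7% in LTA, 49.0% in NTGF and 40.6% in NTG.

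TraesCS2B01G482800 had 305, 116 and 318 CPM in LTAF, 98.6, 173 and 112 in LTA, 0.664, 0.106 and 0.225 in NTGF and 0.307, 0.460 and 0.518 in NTG, in replicates 1, 2 and 3. The lowest of the 6 acclimated libraries was LTA replicate 1 and the highest of the 6 unacclimated libraries NTGF replicate 1, far apart. The log2 fold change was 9.49 ± 0.63 in LTAF against NTGF (10.49 without NTGF replicate 1) and 8.21 ± 0.59 in LTA against NTG. TraesCS2B01G482900 had 139, 92.5 and 137 CPM in LTAF, 50.0, 67.5 and 40.5 in LTA, 1.18, 0.585 and 1.46 in NTGF and 0.998, 0.920 and 0.282 in NTG. Here too the acclimated and the unacclimated libraries were far apart, with log2 fold changes of 6.83 ± 0.45 in LTAF against NTGF and 6.13 ± 0.44 in LTA against NTG. TraesCS2B01G482600 had 284, 293 and 289 CPM in LTAF, 351, 287 and 322 in LTA, 56.1, 40.4 and 21.1 in NTGF and 20.8, 16.0 and 19.9 in NTG. It was present in every group, and the acclimated groups again did not overlap the others, with log2 fold changes of 2.88 ± 0.29 in LTAF against NTGF and 4.08 ± 0.30 in LTA against NTG. TraesCS2B01G482300 had 74.8, 58.8 and 78.2 CPM in LTAF, 82.8, 79.8 and 79.7 in LTA, 16.6, 21.9 and 11.8 in NTGF and 8.29, 6.78 and 5.60 in NTG. Its log2 fold changes were 2.07 ± 0.22 and 3.55 ± 0.24 in the same 2 comparisons.

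Of their neighbours, 5 others had few or no counts outside the acclimated groups. TraesCS2B01G482200 had 23.0, 7.41 and 36.2 CPM in LTAF, 0.824, 16.4 and 4.41 in LTA, 0, 0.106 and 0.225 in NTGF and 0, 0 and 0 in NTG. It had no count in NTG and 6 in NTGF. The group LTA was at least 182-fold higher than NTG with a floor of 3 counts over the NTG group (at least 65.0-fold without LTA replicate 2, 118-fold without NTG replicate 1 or 2). In LTAF against NTGF its log2 fold change was 7.61 ± 1.41, or 7.02 and 8.57 without NTGF replicate 1 and 3. TraesCS2B01G482700 had 36.9, 7.53 and 46.8 CPM in LTAF, 5.06, 20.8 and 9.92 in LTA, 0.256, 0 and 0.0563 in NTGF and 0.192, 0.153 and 0.0942 in NTG, with log2 fold changes of 8.07 ± 1.02 in LTAF against NTGF (9.82 without NTGF replicate 1) and 6.26 ± 0.94 in LTA against NTG (5.60 without LTA replicate 2). TraesCS2B01G483000 had 29.0, 21.8 and 16.8 CPM in LTAF, 6.92, 11.3 and 7.19 in LTA, 0.204, 0.0532 and 0.338 in NTGF and 0.0384, 0.0383 and 0.659 in NTG. NTG replicate 3 held 14 of its 16 NTG counts, and the log2 fold change in LTA against NTG was 5.20 ± 0.67 with that library and 7.57 without it. In LTAF against NTGF it was 6.80 ± 0.71. TraesCS2B01G482500 had 7.36, 3.19 and 6.90 CPM in LTAF, 2.42, 3.45 and 3.15 in LTA, 0.0511, 0.0532 and 0.394 in NTGF and 0, 0.0766 and 0 in NTG. With 2 counts in NTG, the ratio of LTA to NTG was 111 with a 95% counting interval of 30.2 to 922 (71.5 without NTG replicate 1, and a bound of 47.6 without NTG replicate 2, which holds both counts). In LTAF against NTGF its log2 fold change was 5.12 ± 0.63, or 6.64 without NTGF replicate 3. TraesCS2B01G483100 had 1.08, 0.456 and 3.54 CPM in LTAF, 0.220, 2.10 and 0.472 in LTA, 0, 0 and 0 in NTGF and 0, 0 and 0.377 in NTG. With no count in NTGF, LTAF was at least 30.7-fold higher, or at least 14.4-fold without LTAF replicate 3, 20.003-fold without NTGF replicate 1 and 20.4-fold without NTGF replicate 2. Such floors and intervals cover counting error only.

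**Figure D3:**
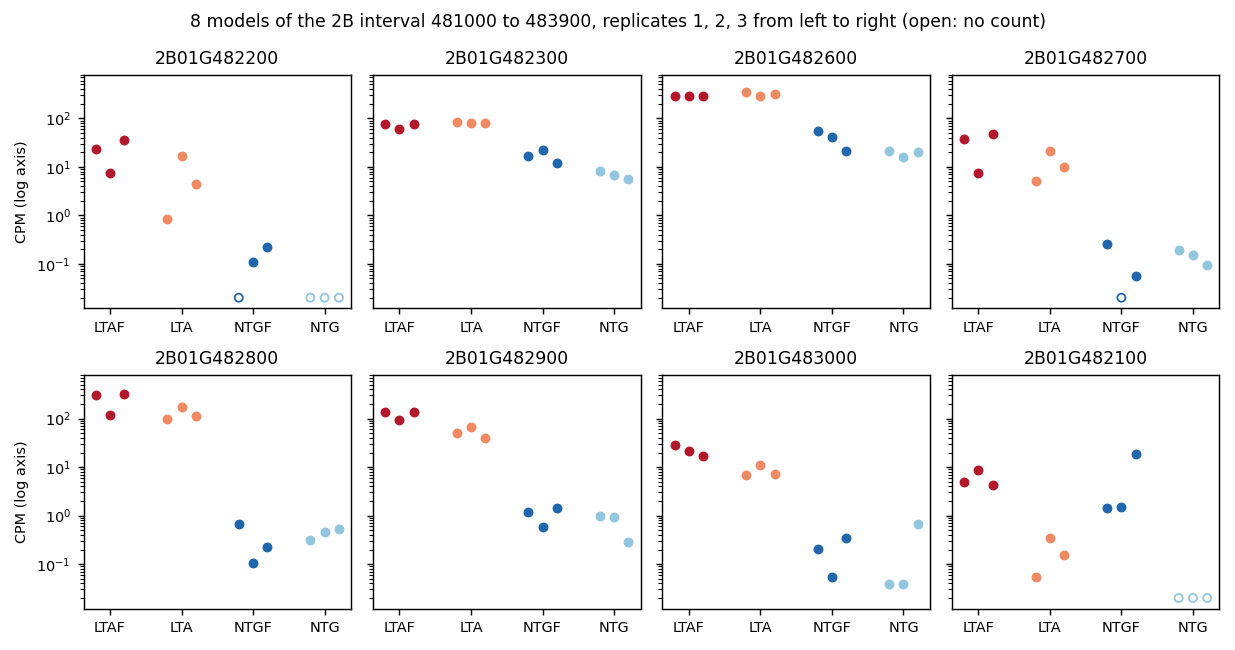
CPM on a log axis (vertical) in the 3 libraries of each group (horizontal) for 8 models of the higher 2B interval. Open points mark libraries without a count, drawn at the foot of the axis: 7 of the 8 models are high in LTAF and LTA, while TraesCS2B01G482100 is higher in NTGF than in LTA.

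TraesCS2B01G482100 had a pattern of its own among these neighbours. It had 4.96, 8.89 and 4.23 CPM in LTAF, 0.0550, 0.350 and 0.157 in LTA, 1.43, 1.49 and 19.0 in NTGF and 0, 0 and 0 in NTG, so that both frozen groups lay above LTA and NTG without overlap. NTGF was at least 171-fold above NTG with a floor of 3 counts over that group (edgeR adjusted p = 0.00682). The model passed the filter through the frozen groups, and NTG belongs to the comparison that chose the interval, so this p-value is a description. The bound was 35.7 without NTGF replicate 3, which held 337 of the 393 counts, and 110.5 and 110.4 without NTG replicate 1 and 2. In LTAF against LTA the log2 fold change was 4.94 ± 1.27, which did not pass the test (edgeR adjusted p = 0.0567), and LTAF and NTGF overlapped (-0.27 ± 0.90).

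Of the 20 tested members of the higher 2B interval, edgeR called 10 higher and 1 lower in LTA against NTG, where 20.0% of all tested models were called higher and 18.1% lower. In LTAF against NTGF it called 11 higher, against 20.2% of all tested models, and 0 lower, against 19.6% (1 lower at an unadjusted p under 0.05, and 0 lower with DESeq2). The interval was chosen for these comparisons, so nothing is read from these counts. Of the models called higher, 9 were the same in both. The median log2 fold change of the 20 was 1.77 in LTAF against NTGF and 2.47 in LTA against NTG (2.09 with models without a count set to their bound), while the medians over all tested models were -0.03 and -0.06.

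On freezing, the counts of called models among these 20 were as follows. In NTGF against NTG, edgeR called 5 higher, where 14.2% of all tested models were called higher, and 0 lower, where 11.7% were (2 lower at an unadjusted p under 0.05, and 0 with DESeq2). Between LTAF and LTA it called 1 higher, where 3.99% were (7 higher at an unadjusted p under 0.05, and 3 with DESeq2), and 0 lower, where 1.92% were (0 at an unadjusted p under 0.05, and 0 with DESeq2). These 2 comparisons share their NTG and LTA libraries with the comparison that chose the interval. TraesCS2B01G482300 rose on freezing in unacclimated crowns, at 16.8 ± 5.05 CPM in NTGF and 6.89 ± 1.35 in NTG (SD, n = 3 each), a log2 fold change of 1.28 ± 0.22 (edgeR adjusted p = 0.00221). In acclimated crowns it lay at 70.6 ± 10.3 CPM in LTAF and 80.8 ± 1.79 in LTA, a log2 fold change of -0.19 ± 0.21 (edgeR adjusted p = 0.659). The difference between these 2 freezing responses, the interaction term, was -1.47 ± 0.31 on the log2 scale. It is also the difference between the comparisons for which the interval was chosen, so it is given without a test. TraesCS2B01G482600 rose in NTGF against NTG by 1.05 ± 0.27 on the log2 scale (edgeR adjusted p = 0.0155). That call ended with scaling by library totals (adjusted p = 0.0593) and without NTGF replicate 1 or NTG replicate 2 (log2 fold changes 0.71 and 0.94, adjusted p up to 0.0671).

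TraesCS2B01G483400 was called higher on freezing in both states. It had 10.8, 9.75 and 11.4 CPM in LTAF, 2.14, 1.95 and 1.42 in LTA, 4.45, 6.33 and 29.6 in NTGF and 5.22, 3.45 and 3.44 in NTG. The log2 fold change was 2.53 ± 0.62 in LTAF against LTA (edgeR adjusted p = 0.0374) and 1.73 ± 0.58 in NTGF against NTG (edgeR adjusted p = 0.0476). In NTGF against NTG the value rested on NTGF replicate 3 and was 0.42 without it, and the calls ended without 9 and 10 of the 12 libraries in turn (adjusted p up to 0.147 and 0.25). TraesCS2B01G483200 differed little between the groups, at 17.7 ± 0.935 CPM in LTAF, 14.2 ± 0.232 in LTA, 19.4 ± 1.38 in NTGF and 14.5 ± 0.422 in NTG (SD, n = 3 each). It was called higher in NTGF against NTG (0.43 ± 0.11, edgeR adjusted p = 0.0179), but with library totals the difference was 0.11 (adjusted p = 0.517), and without NTG replicate 1 or 2 the adjusted p reached at most 0.0741.

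The rest of the higher 2B interval was less uniform. TraesCS2B01G481000 lay at 10.7 ± 1.84 CPM in LTAF, 10.8 ± 1.02 in LTA, 7.57 ± 1.34 in NTGF and 5.24 ± 1.15 in NTG (SD, n = 3 each), and the last model, TraesCS2B01G483900, at 13.7 ± 1.502 CPM in LTAF, 6.18 ± 0.598 in LTA, 3.23 ± 2.31 in NTGF and 1.64 ± 0.336 in NTG. For TraesCS2B01G483900 the log2 fold change was 2.09 ± 0.42 in LTAF against NTGF, or 2.75 without NTGF replicate 3. TraesCS2B01G482000 went another way between the unfrozen groups, at 10.1 ± 4.12 CPM in LTAF against 4.60 ± 0.480 in NTGF, and at 5.98 ± 2.68 in LTA against 9.35 ± 2.96 in NTG. Its value in LTAF against NTGF was 1.14 ± 0.39, and that call ended without 7 of the 12 libraries in turn. TraesCS2B01G482400, which lies between TraesCS2B01G482300 and TraesCS2B01G482500, stayed under 1 CPM and had the opposite order, with 1 count in LTAF, 7 in LTA, 11 in NTGF and 42 in NTG, and with 0.110, 0.0999 and 0.157 CPM in LTA and 0.461, 0.651 and 0.612 in NTG, so that NTG lay above LTA without overlap. TraesCS2B01G481200, TraesCS2B01G481700, TraesCS2B01G483500 and TraesCS2B01G483600 had group means under 2 CPM and were called in none of the comparisons.

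Of the members that did not pass the filter, 9 lie in the higher 2B interval. TraesCS2B01G481300 had 1 count over the 3 LTAF libraries, 15 in LTA, 3 in NTGF and 2 in NTG. TraesCS2B01G481600 had no count in either acclimated group, 14 counts in NTGF and 6 in NTG, all 6 of them in NTG replicate 1. TraesCS2B01G481400, TraesCS2B01G481500, TraesCS2B01G481800, TraesCS2B01G481900, TraesCS2B01G483300, TraesCS2B01G483700 and TraesCS2B01G483800 had 0 to 6 counts in any group. On 2D, TraesCS2D01G454700, TraesCS2D01G454800 and TraesCS2D01G455100 had 0 to 8.

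In the lower 2B interval several models were highest in crowns that were both acclimated and frozen. TraesCS2B01G475700 had 69.7, 53.4 and 74.3 CPM in LTAF, 23.0, 18.9 and 21.3 in LTA, 4.14, 10.4 and 22.02 in NTGF and 6.41, 6.40 and 7.30 in NTG. LTAF lay above every other library, and NTGF replicate 3 lay within the LTA range, above the other NTGF libraries. The log2 fold change was 2.44 ± 0.44 in LTAF against NTGF, or 3.18 without NTGF replicate 3, and 1.64 ± 0.43 in LTAF against LTA (edgeR adjusted p = 0.0471, a call that ended without 10 of the 12 libraries in turn, with adjusted p up to 0.152). TraesCS2B01G476300 had 51.6, 41.6 and 56.4 CPM in LTAF, 11.9, 9.84 and 8.55 in LTA, 7.61, 14.4 and 50.7 in NTGF and 2.03, 1.95 and 3.15 in NTG. It rose on freezing in NTGF against NTG by 3.35 ± 0.59 (edgeR adjusted p = 0.00287), or 2.22 without NTGF replicate 3, and in LTAF against LTA by 2.31 ± 0.55 (edgeR adjusted p = 0.0341, lost without 7 of the 12 libraries, adjusted p up to 0.139). Between the frozen groups the log2 fold change was 1.04 ± 0.53, with NTGF replicate 3 inside the LTAF range. TraesCS2B01G476400 had 32.3, 22.3 and 31.0 CPM in LTAF, 9.51, 6.99 and 6.14 in LTA, 4.04, 8.73 and 15.4 in NTGF and 1.46, 1.84 and 2.92 in NTG. Its log2 fold changes were 1.60 ± 0.40 in LTAF against NTGF, 2.19 ± 0.43 in NTGF against NTG (edgeR adjusted p = 0.00484) and 1.92 ± 0.41 in LTAF against LTA (edgeR adjusted p = 0.0206, lost without 5 of the 12 libraries, adjusted p up to 0.102).

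TraesCS2B01G475800 rose on freezing with and without acclimation. It had 51.0, 50.8 and 53.5 CPM in LTAF, 9.45, 8.04 and 7.87 in LTA, 16.1, 38.4 and 63.1 in NTGF and 3.30, 2.61 and 3.06 in NTG. NTGF lay above NTG by 3.71 ± 0.39 on the log2 scale (edgeR adjusted p = 0.000184) and LTAF above LTA by 2.61 ± 0.37 (edgeR adjusted p = 0.00252), and both calls held with each of the 12 libraries left out in turn. Among the members it was the 1 model for which a rise in LTAF against LTA held in this way. Both comparisons share groups with those that may have set the interval, so these calls are a description. The frozen groups overlapped, since NTGF replicate 3 lay above the LTAF libraries, with a log2 fold change of 0.40 ± 0.35.

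TraesCS2B01G476700, the last model of the interval, went the other way on freezing. It had 18.6, 11.0 and 21.1 CPM in LTAF, 34.8, 34.6 and 33.3 in LTA, 5.06, 6.97 and 3.66 in NTGF and 11.4, 11.5 and 14.7 in NTG. The 4 groups did not overlap, in the order LTA, LTAF, NTG and NTGF, apart from LTAF replicate 2, which lay below the NTG libraries. LTAF lay above NTGF by 1.69 ± 0.26 on the log2 scale. It fell on freezing, by a log2 fold change of -1.26 ± 0.26 in NTGF against NTG (edgeR adjusted p = 0.00527) and -1.02 ± 0.25 in LTAF against LTA (edgeR adjusted p = 0.0357, lost without 5 of the 12 libraries, adjusted p up to 0.112).

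The other models of the lower 2B interval had means under 15 CPM in every group. TraesCS2B01G475400 had 11.0, 11.4 and 12.4 CPM in LTAF, 5.61, 4.44 and 4.57 in LTA, 0.767, 1.70 and 5.74 in NTGF and 0.921, 0.996 and 0.942 in NTG, with a log2 fold change of 2.09 ± 0.50 in LTAF against NTGF, or 3.23 without NTGF replicate 3. TraesCS2B01G475500 lay at 4.25 ± 0.588 CPM in LTAF, 2.25 ± 0.106 in LTA, 0.947 ± 0.176 in NTGF and 1.14 ± 0.359 in NTG (SD, n = 3 each), and its log2 fold change in LTAF against NTGF was 2.16 ± 0.27. TraesCS2B01G476500 lay at 1.06 ± 0.326 CPM in LTAF, 1.20 ± 0.187 in LTA, 0.179 ± 0.0635 in NTGF and 0.254 ± 0.111 in NTG, with 2.53 ± 0.46 in LTAF against NTGF. TraesCS2B01G475500 and TraesCS2B01G476500 show low counts but no overlap between acclimated and unacclimated libraries. In TraesCS2B01G475400, NTGF replicate 3, at 5.74 CPM, lay above the 3 LTA libraries. TraesCS2B01G476200 had 2.22, 3.42 and 3.54 CPM in LTAF, 0.275, 0.250 and 0.105 in LTA, 0.153, 0.106 and 1.13 in NTGF and 0.0384, 0.0766 and 0.0942 in NTG, with 2.74 ± 0.63 in LTAF against NTGF, or 4.49 without NTGF replicate 3. From LTA, LTAF differed by 3.83 ± 0.70 (edgeR adjusted p = 0.00797, and the call ended without LTA replicate 3, adjusted p = 0.0522). The model passed the filter through its LTAF libraries, so this p-value is a description. NTGF lay above NTG by 2.62 ± 0.92 (edgeR adjusted p = 0.0467), which was 0.88 without NTGF replicate 3 and lost without 10 of the 12 libraries in turn (adjusted p up to 0.478). TraesCS2B01G476600 had 3.88, 2.22 and 5.41 CPM in LTAF, 1.43, 0.799 and 0.682 in LTA, 0.460, 2.08 and 3.21 in NTGF and 0, 0.0383 and 0.141 in NTG and rose in NTGF against NTG by 4.96 ± 0.93 (edgeR adjusted p = 0.00296), or 6.23 without NTG replicate 3, which held 3 of its 4 NTG counts.

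Calls for the remaining models were weak. TraesCS2B01G475100, TraesCS2B01G475200 and TraesCS2B01G475900 had log2 fold changes of 1.09 ± 0.36, 0.63 ± 0.23 and 2.14 ± 0.77 in LTAF against NTGF, and the calls of these ended without 3, 9 and 9 of the 12 libraries in turn. TraesCS2B01G475100 was called higher in LTAF against LTA (1.41 ± 0.36, edgeR adjusted p = 0.0417), lost without 8 of the 12 libraries (adjusted p up to 0.163). TraesCS2B01G475900 reached 3.54 without NTGF replicate 3. TraesCS2B01G475600 lay at 1.76 ± 0.600 CPM in LTAF, 1.64 ± 0.579 in LTA, 1.55 ± 0.614 in NTGF and 1.68 ± 0.214 in NTG (SD, n = 3 each) and was called in none of the comparisons. TraesCS2B01G476100 had 42 counts in LTAF, 15 in LTA, 8 in NTGF and none in NTG.

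Of the 15 models of the lower 2B interval, edgeR called 10 higher in LTAF against NTGF, where 20.2% of all tested models were, and 0 lower, where 19.6% were (0 lower at an unadjusted p under 0.05, and 0 with DESeq2). In LTA against NTG it also called 10 higher, beside 20.0% of all tested models, and 6 models were called higher in both. Either comparison may have set this interval, so nothing is read from these counts. In NTGF against NTG it called 5 higher, beside 14.2% of all tested models, and 1 lower, beside 11.7%. Between LTAF and LTA it called 7 higher, beside 3.99%, and 1 lower, beside 1.92%. Both freezing comparisons share libraries with those that may have set the interval, so their counts are a description too. The median log2 fold change was 1.69 in LTAF against NTGF, 0.87 in NTGF against NTG and 1.64 in LTAF against LTA, with medians over all tested models of -0.03, 0.04 and -0.03.

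On 2D, the models from TraesCS2D01G454000 to TraesCS2D01G454500 were each called higher in LTAF against NTGF. That comparison was known when the interval was chosen, so its p-values on 2D are a description and no independent test. TraesCS2D01G454400 had 11.3, 9.92 and 17.7 CPM in LTAF, 9.01, 7.99 and 8.03 in LTA, 0.0511, 0.160 and 0.676 in NTGF and 0.691, 1.07 and 1.98 in NTG. LTAF lay above NTGF by 5.46 ± 0.58 on the log2 scale (edgeR adjusted p = 7.08e-05), or 6.87 without NTGF replicate 3. TraesCS2D01G454500 had 16.4, 16.6 and 20.3 CPM in LTAF, 12.1, 10.2 and 10.6 in LTA, 0.971, 1.54 and 2.42 in NTGF and 2.53, 2.76 and 4.33 in NTG, with 3.43 ± 0.30 in LTAF against NTGF (edgeR adjusted p = 1.88e-05). For both models the acclimated libraries lay above the unacclimated libraries without overlap. Both fell in NTGF against NTG, by log2 fold changes of -2.07 ± 0.63 (edgeR adjusted p = 0.0301) and -0.96 ± 0.30 (edgeR adjusted p = 0.0326). In LTAF against LTA the values were 0.64 ± 0.42 (edgeR adjusted p = 0.427) and 0.69 ± 0.26 (edgeR adjusted p = 0.149). The calls in NTGF against NTG each ended without NTGF replicate 1 or 2 or NTG replicate 2 or 3, with adjusted p up to 0.097 and 0.121, and without NTGF replicate 3 the value of TraesCS2D01G454400 was -3.47. The interaction terms were 2.71 ± 0.76 (edgeR adjusted p = 0.0416) and 1.65 ± 0.40 (edgeR adjusted p = 0.0243), and these calls ended without 9 and 6 of the 12 libraries in turn (adjusted p up to 0.0913 and 0.0611). The term is also the difference between LTAF against NTGF and LTA against NTG, so it is not independent of the choice of the interval.

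TraesCS2D01G454200 had 7.13, 5.82 and 5.41 CPM in LTAF, 4.40, 3.60 and 4.46 in LTA, 0.153, 0.266 and 0.901 in NTGF and 0.537, 0.421 and 0.800 in NTG, with a log2 fold change of 3.80 ± 0.45 in LTAF against NTGF (edgeR adjusted p = 0.000106), or 4.83 without NTGF replicate 3. TraesCS2D01G454000 had 8.84, 9.41 and 10.3 CPM in LTAF, 6.27, 5.54 and 6.04 in LTA, 0.409, 1.01 and 4.05 in NTGF and 0.921, 0.920 and 1.13 in NTG, with 2.39 ± 0.54 (edgeR adjusted p = 0.00562), or 3.74 without NTGF replicate 3. In both, NTGF replicate 3 lay nearest to the acclimated libraries but below them. TraesCS2D01G454100 had 3.71, 3.93 and 3.42 CPM in LTAF, 0.769, 1.30 and 0.682 in LTA, 0.153, 0.106 and 1.52 in NTGF and 0.115, 0.0383 and 0 in NTG, with 2.65 ± 0.71 in LTAF against NTGF (edgeR adjusted p = 0.0122), or 4.76 without NTGF replicate 3. Its value in NTGF against NTG was 3.29 ± 1.10 (edgeR adjusted p = 0.0401), or 1.19 and 4.42 without NTGF replicate 3 and NTG replicate 1, and the call ended without 9 of the 12 libraries in turn (adjusted p up to 0.347). TraesCS2D01G453900, the first model, lay at 9.86 ± 2.04 CPM in LTAF, 5.26 ± 0.777 in LTA, 2.35 ± 2.30 in NTGF and 2.33 ± 0.871 in NTG (SD, n = 3 each). Its call in LTAF against NTGF (2.07 ± 0.59, edgeR adjusted p = 0.0173) became 3.18 without NTGF replicate 3 and ended without LTAF replicate 1 or NTGF replicate 2 (adjusted p up to 0.0532).

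TraesCS2D01G454300 and TraesCS2D01G454900 rose on freezing in unacclimated crowns. TraesCS2D01G454300 had 23.6, 21.3 and 29.0 CPM in LTAF, 8.52, 8.14 and 8.71 in LTA, 1.89, 5.96 and 12.5 in NTGF and 0.499, 0.843 and 1.37 in NTG, and NTGF lay above NTG by 2.92 ± 0.58 (edgeR adjusted p = 0.0048), or 2.14 without NTGF replicate 3. TraesCS2D01G454900 had 36.3, 20.1 and 37.1 CPM in LTAF, 9.18, 12.3 and 13.5 in LTA, 3.58, 7.13 and 22.4 in NTGF and 0.499, 0.728 and 0.847 in NTG, and NTGF lay above NTG by 3.99 ± 0.64 (edgeR adjusted p = 0.00179), or 2.96 without NTGF replicate 3. In both, all 3 NTGF libraries lay above the NTG libraries and replicate 3 was the highest. LTAF lay above NTGF by 1.86 ± 0.50 in TraesCS2D01G454300 (edgeR adjusted p = 0.0135), or 2.65 without NTGF replicate 3. In TraesCS2D01G454900 it lay 1.50 ± 0.52 above (edgeR adjusted p = 0.0415), or 2.54 without NTGF replicate 3, a call that ended without 10 of the 12 libraries in turn (adjusted p up to 0.12). Freezing of acclimated crowns gave 1.54 ± 0.49 and 1.42 ± 0.52, which did not pass the test (edgeR adjusted p = 0.097 and 0.146), although LTAF and LTA did not overlap.

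TraesCS2D01G455000 was highest in LTA and fell on freezing in both states. It had 25.0, 17.0 and 25.9 CPM in LTAF, 62.0, 59.4 and 59.1 in LTA, 6.08, 7.13 and 6.31 in NTGF and 12.1, 10.8 and 14.5 in NTG. LTAF lay above NTGF by 1.80 ± 0.18 on the log2 scale (edgeR adjusted p = 4.22e-05). NTGF lay below NTG, with a log2 fold change of -0.94 ± 0.18 (edgeR adjusted p = 0.00342), and LTAF below LTA, with -1.41 ± 0.17 (edgeR adjusted p = 0.000992). All 3 calls held with each of the 12 libraries left out in turn.

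The 5 remaining models at the upper end of the 2D interval and TraesCS2D01G454600 differed among themselves. TraesCS2D01G455300 had 17.7, 19.4 and 17.97 CPM in LTAF, 18.5, 18.6 and 18.9 in LTA, 13.5, 17.0 and 11.3 in NTGF and 8.52, 8.85 and 7.91 in NTG, and rose in NTGF against NTG by 0.72 ± 0.15 (edgeR adjusted p = 0.00545), which with library totals was 0.40 (adjusted p = 0.0726). Its interaction term was -0.75 ± 0.21 (edgeR adjusted p = 0.0425), lost with library totals (-0.52, adjusted p = 0.142) and without 10 of the 12 libraries in turn (adjusted p up to 0.105). That term too is not independent of the choice of the interval. TraesCS2D01G455600 had 16.0, 8.95 and 16.3 CPM in LTAF, 10.4, 12.7 and 11.9 in LTA, 2.86, 5.11 and 4.45 in NTGF and 5.41, 3.95 and 3.86 in NTG, with 1.73 ± 0.27 in LTAF against NTGF (edgeR adjusted p = 0.000548). TraesCS2D01G454600 stayed under 3 CPM and was 1.77 ± 0.35 higher in LTAF against NTGF (edgeR adjusted p = 0.00224). TraesCS2D01G455500 was the 1 tested member called lower in LTAF against NTGF, at 3.35 ± 0.720 CPM in LTAF and 5.65 ± 0.934 in NTGF (-0.75 ± 0.22, edgeR adjusted p = 0.0188), a call that ended without LTAF replicate 1 or 3 or NTGF replicate 1 (adjusted p up to 0.0766). TraesCS2D01G455200 and TraesCS2D01G455400 were called in none of the comparisons, with the group means of TraesCS2D01G455200 between 11.2 CPM in NTG and 20.3 in NTGF.

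Of the 15 tested models on 2D, edgeR called 11 higher in LTAF against NTGF, beside 20.2% of all tested models, and 1 lower, beside 19.6%. In LTA against NTG 10 were called higher, beside 20.0%, and 9 were called higher in both. The interval was chosen with both comparisons known, so nothing is read from these counts. In NTGF against NTG it called 4 higher and 3 lower, beside 14.2% and 11.7%. Between LTAF and LTA it called 0 higher, beside 3.99%, and 1 lower, beside 1.92% (5 higher at an unadjusted p under 0.05, and 1 with DESeq2). Both freezing comparisons share libraries with LTA against NTG, which chose the interval, so their counts are a description. The median log2 fold change was 1.80 in LTAF against NTGF, 0.06 in NTGF against NTG and 0.64 in LTAF against LTA.

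Some models of the lower 2B interval and of 2D had like patterns over the groups. These were picked after their values were seen, and whether they are copies of 1 ancestral gene is not annotated. TraesCS2B01G476700 on 2B and TraesCS2D01G455000 on 2D were both highest in LTA and both lowest in NTGF, at 34.2 and 5.23 CPM on 2B and at 60.2 and 6.51 CPM on 2D. TraesCS2B01G476300 and TraesCS2D01G454900 were both highest in LTAF and lowest in NTG, at 49.9 and 2.38 CPM on 2B and at 31.2 and 0.692 CPM on 2D. Near-identical copies can share reads, and how the authors' counting treated such reads is not given in the sources used here, so values of 2B and 2D models need not be independent.

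Over all 50 tested members, edgeR called 32 higher and 1 lower in LTAF against NTGF, beside 20.2% and 19.6% of all tested models. Nothing is read from these counts, since that comparison set or may have set the 2B intervals and was known for 2D. In NTGF against NTG edgeR called 14 higher and 4 lower, beside 14.2% and 11.7%, and in LTAF against LTA 8 higher and 2 lower, beside 3.99% and 1.92%. Both freezing comparisons share libraries with those that chose the intervals, so their counts are a description. With each of the 12 libraries left out in turn, 9 of the 14 and 2 of the 4 calls held in NTGF against NTG, and 1 of the 8 and 1 of the 2 in LTAF against LTA. The count of 8 depends on single libraries: leaving out LTA replicate 1, LTA replicate 2, LTAF replicate 1 or LTAF replicate 3 gave 2, leaving out LTA replicate 3 gave 1, and it was 4 and 3 without NTG replicate 1 and 2, 14 without NTGF replicate 1 and 15 without NTGF replicate 3. The count of 14 was 9 without NTG replicate 2, and the 4 lower were 2 without NTGF replicate 2, NTG replicate 2 or NTG replicate 3. The 2 lower in LTAF against LTA were 1 when any 1 LTA library, LTAF replicate 1 or NTG replicate 2 was left out. The 2 negative interaction terms were 1 without 9 of the 12 libraries and 5 without NTGF replicate 1. The interaction called 2 positive and 2 negative, beside 5.12% and 5.91% of all tested models, and contains the libraries on which the intervals were chosen. The 2 positive calls numbered 0 when any 1 LTA library, LTAF replicate 1, LTAF replicate 3 or NTG replicate 3 was left out, and numbered 1 without NTGF replicate 1 or 2 or NTG replicate 2, and 8 without NTGF replicate 3. The median log2 fold change of the 50 was 1.79 in LTAF against NTGF, 0.47 in NTGF against NTG and 0.80 in LTAF against LTA.

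**Figure D4:**
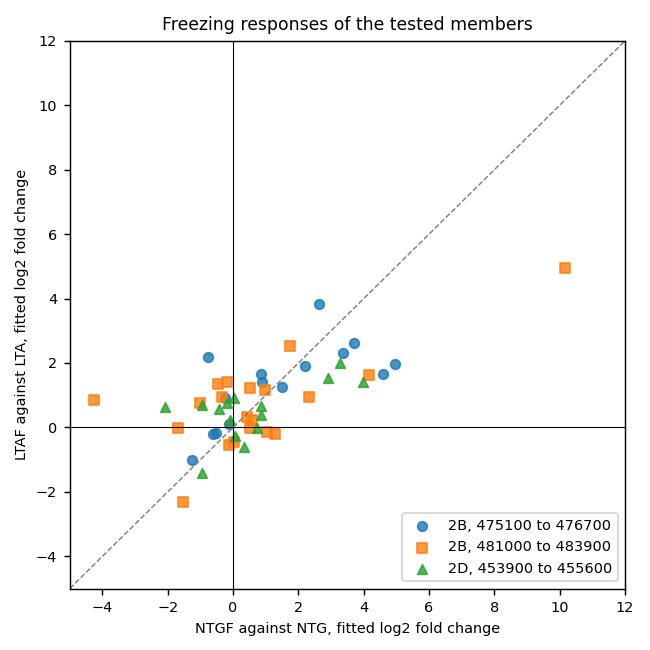
Fitted log2 fold change of LTAF against LTA (vertical axis) and of NTGF against NTG (horizontal axis) for the 50 tested members, by interval. The dashed line marks equal responses, and the point farthest right, at 10.17 and 4.94, is TraesCS2B01G482100, whose horizontal value depends on the prior count since NTG had no count.

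The contrast was smaller or had the opposite sign just outside the intervals than just inside the same edge. For the models just inside the edges, LTA against NTG gave a log2 fold change of 0.55 for TraesCS2B01G475100, 1.45 for TraesCS2B01G476700, 1.04 for TraesCS2B01G481000, 1.91 for TraesCS2B01G483900, 1.18 for TraesCS2D01G453900 and 1.40 for TraesCS2D01G455600. For the nearest tested models just outside it was -1.13 for TraesCS2B01G475000, 0.65 for TraesCS2B01G476900, 0.39 for TraesCS2B01G480800, -1.47 for TraesCS2B01G484100, -1.15 for TraesCS2D01G453800 and -0.53 for TraesCS2D01G455700. The edges were set on these values, so the step is a description.

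Among the up to 20 high-confidence models on each side of each interval, 81 of 112 were tested. In LTAF against NTGF, edgeR called 10 of these 81 higher, beside 20.2% of all tested models, and 31 lower, beside 19.6%. The median log2 fold change was -0.45. In LTA against NTG it called 12 higher, beside 20.0%, and 17 lower, beside 18.1%, with a median of -0.12. Single neighbours rose strongly there, with log2 fold changes of 5.825 for TraesCS2B01G478700 and 6.029 for TraesCS2D01G456900. The highest members of the lower 2B and 2D intervals lay at 5.40 and 4.08. In LTAF against NTGF these neighbours lay at -0.44 and 0.41. The edges were set on these same libraries, so counts outside them are a description. The models below the lower 2B and the 2D interval lay lowest, with medians of -1.20 over 12 models and -0.98 over 15 models in LTAF against NTGF. Between the 2 intervals of 2B lie 32 high-confidence models, of which 26 were tested. In LTAF against NTGF 5 of these were called higher and 8 lower, with a median of -0.37, and in LTA against NTG 6 were called higher and 2 lower, with a median of 0.00. The shares of all tested models are those given above.

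**Figure D5:**
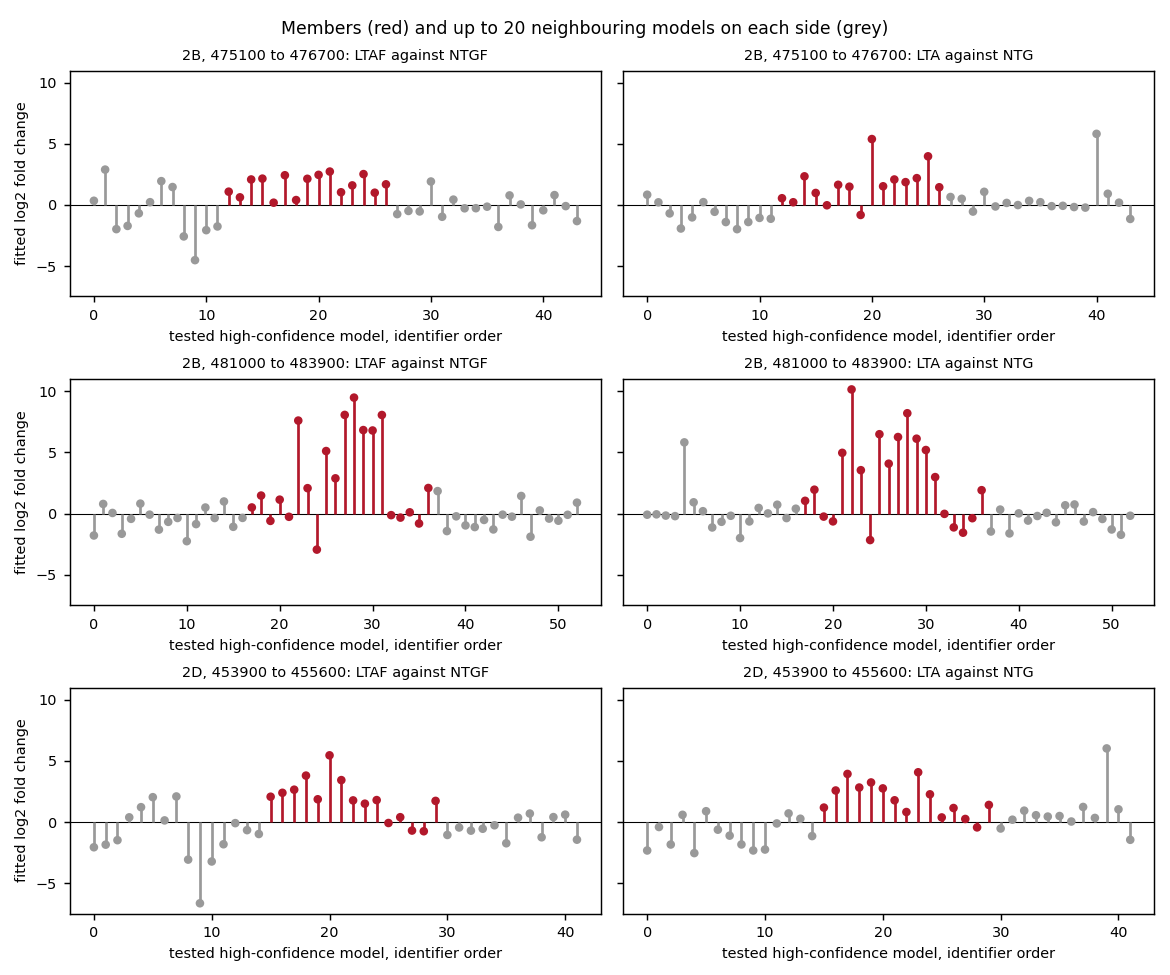
Fitted log2 fold change (vertical axis) of LTAF against NTGF (left) and LTA against NTG (right) for tested high-confidence models in identifier order (horizontal axis, position in the plotted order). Members are red and up to 20 neighbouring models on each side are grey: the highest member in LTAF against NTGF is TraesCS2B01G482800, at 9.49, and the medians of the neighbours are -0.45 and -0.12. Single neighbours were high in LTA against NTG, at 5.825 for TraesCS2B01G478700 and 6.029 for TraesCS2D01G456900.

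Replicates of 1 group also differed in a shared way within intervals. In the higher 2B interval, 11 of the 20 tested models, or 55%, had their highest LTA value in replicate 2 and their lowest LTAF value in replicate 2, against 19.8% of all tested models. TraesCS2B01G482200, TraesCS2B01G482500, TraesCS2B01G482700, TraesCS2B01G482800, TraesCS2B01G482900 and TraesCS2B01G483100 are among the 11. In the lower 2B interval, 13 of 15 models, or 86.7%, had their highest NTGF value in replicate 3, and on 2D 9 of 15, or 60%, against 28.6% of all tested models. These orders were noticed in the data, neighbours of 1 library share that library, and no test is attached to them.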

How the data were processed

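RNA sequencing libraries of 12 crown samples in 4 groups of 3 were analysed. The authors deposited raw read counts per gene model with 1 column per library, per the file headers, and column names gave the library of each column. Not given in the sources used here are the aligner, counting program, genome build, annotation, strand setting and treatment of reads that match several copies. No molecular identifiers are named. Members and comparison lists were chosen with earlier results of these data known. Every member is accounted for. Members whose mean reached 10 CPM in 1 group, or that were called in a comparison other than LTA against NTG, could be named with values; members under the filter are given by summed counts and other low members to account for each.

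Counts were scaled with TMM (trimmed mean of M-values) and filtered with filterByExpr (minimum count 10), leaving 69693 models with at least 99.375% of each library. All 12 libraries entered 1 edgeR 4.0.16 fit (R 4.3.3) with a mean per group, robust quasi-likelihood F tests and Benjamini-Hochberg adjustment over all tested models. SEs were taken from the fitted change and its F statistic. Log2 CPM used a prior count of 2. Bounds use a floor of 3 counts over a group (per library, 3 counts are 0.115 to 0.187 CPM), and ratios with 1 to 3 counts have 95% exact intervals. The steps were tested on simulated counts. Alternatives included DESeq2 1.42.0, other scalings, no filter, other sets of libraries and the replicate number as a block. Labels do not say whether replicates shared a tray, day or batch.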

Additional observations from a re-analysis of the deposited data

Results flagged for a closer look

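For 4 members edgeR called the interaction term, the difference between the freezing responses of acclimated and unacclimated crowns. TraesCS2D01G454400 (2.71, edgeR adjusted p = 0.0416) and TraesCS2D01G454500 (1.65, edgeR adjusted p = 0.0243) had positive terms, on the log2 scale. TraesCS2D01G455300 (-0.75, edgeR adjusted p = 0.0425) had a negative term. These 3 calls ended when single libraries were left out, and the term contains the LTA and NTG libraries on which the intervals were chosen. The term is also the difference between LTAF against NTGF and LTA against NTG, so these p-values are no independent test. TraesCS2B01G482300 had a term of -1.47, given as a description, since LTA against NTG and LTAF against NTGF, the comparisons it is made of, both chose the higher 2B interval.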

How the results depend on the processing

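Counts of members called higher in LTAF against NTGF (32) and in LTA against NTG (30) stayed within 1.5 times under every alternative, at 27 to 35 and 27 to 32 with 1 library left out. The 1 model lower in LTA against NTG became 4 with library totals, 0 without the filter, 3 in a fit of only the groups compared and 0 to 2 with 1 library left out. The 1 model lower in LTAF against NTGF became 0 with a 2-fold threshold or only the groups compared, and 0 to 2 with 1 library left out. In NTGF against NTG, the 14 higher became 8 with library totals, 7 with only the groups compared and 9 to 17 with 1 library left out, and the 4 lower became 2 with a 2-fold threshold and 2 to 6. In LTAF against LTA, the 8 higher became 5 with library totals, 3 without the filter, 20 with only the groups compared, 5 with high-confidence models only and 1 to 15 with 1 library left out, and the 2 lower became 1 to 2. For the interaction, the 2 positive became 4 with library totals or DESeq2, 1 without the filter and 0 to 8 with 1 library left out. The 2 negative became 1 with a 2-fold threshold, library totals or no filter, 5 with DESeq2 and 1 to 5. Without LTAF replicate 2 and NTGF replicate 1 together, an alternative chosen after seeing the data, NTGF against NTG had 19 higher, LTAF against LTA 16 higher, and the interaction 4 positive and 6 negative. The cause of these shifts was not tested, beyond the fewer libraries or models that some settings use.

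With the replicate number as a block, LTA against NTG had 0 lower, LTAF against LTA had 4 higher and 1 lower, and the interaction 1 negative; the block changed no other count by more than 1.5 times. Deviations of same-numbered libraries from their group means had correlations of -0.437 to 0.0177, so no pairing by number was seen. With 3 libraries per group, these values cannot show whether replicates shared a tray, day or batch. Library totals in place of TMM moved the median of all tested models by -0.34 in LTA against NTG, -0.31 in NTGF against NTG, -0.12 in LTAF against NTGF and 0.23 in the interaction, so directions hold relative to the bulk of models. The share of all calls that were higher became 29.1% (with TMM 52.5%) in LTA against NTG, 23.9% (54.9%) in NTGF against NTG, 55.8% (67.5%) in LTAF against LTA and 72.2% (46.4%) in the interaction. Of 96 called values of single models, 16 lost the call with library totals, 17 without the filter and 15 with the block. It was lost by 7 without LTAF replicate 2 and NTGF replicate 1, and by 5 with high-confidence models only. With DESeq2 or median-of-ratios scaling 0 lost it, and with the least favourable library left out 30 did. With only the groups compared, 17 lost the call and 70 kept it. The others, among them the interaction terms, had no value in that setting. None of the settings run reversed a called value. Of 108 recomputed interval differences, 101 moved by less than 1 SD. Most of these left out 1 library of 3, which cannot move a difference by 1 SD, so nothing is read from them. The 7 that moved came with library totals, a prior count of 0.5 or all members with any count, mostly in LTA against NTG. With library totals that difference went from 1.23 to 0.95 log2 CPM in the lower 2B interval and from 1.76 to 1.45 on 2D. With all members that have any count, the higher 2B interval differed by 1.78 log2 CPM in LTAF against NTGF, against 2.65 over the tested members. Depth limits the models under 1 CPM most.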
